A study of Oryza sativa with 20 samples.

Results

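The change in the stigma 5 min after pollination was set against the change in the ovary. For each probe set the difference was (5-min stigma minus unpollinated stigma) minus (5-min ovary minus unpollinated ovary), in log2 intensity, and is called the interaction here. A positive interaction means that the stigma moved up more, or down less, than the ovary. The comparison used 11 of the 20 Affymetrix rice arrays of the study. They hold stigmas 5 min after pollination (n = 2), unpollinated stigmas (n = 3), ovaries 5 min after pollination (n = 3) and unpollinated ovaries (n = 3). The other 9 arrays hold undissected pistils collected later, 3 each from 15 to 25 min, from 40 to 50 min and from 5 to 7 h. All plants were field-grown rice, with no cultivar in the labels, and the tissues were dissected from whole pistils. Samples taken after pollination included the pollen grains that had landed, for the ovary as well as the stigma. Replicates are labelled biological with no mention of plant or day. The p-values below use an error estimate pooled over all 20 arrays, later pistils included, and that spread may in part be technical. Of the 35470 probe sets tested, 487 had an interaction at an adjusted p under 0.05 (limma, Benjamini-Hochberg). These 487 probe sets are described below.

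The rice stigma is a feathery, dry receptive surface. A pollen grain that lands on it takes up water, germinates and sends a tube through the stigma and style toward the ovule in the ovary.

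The labelled tissues were checked against marker genes. The ovule genes MADS13, MADS21 and MADS29 were lower in unpollinated stigma than in unpollinated ovary by -3.51, -4.68 and -4.34 on the log2 scale, and YABBY1 by -2.97. Of the other 5 ovule and carpel markers MADS3 had -0.25, and MADS7, MADS8, MADS58 and DL had 0.08, 0.17, 0.61 and 1.74. The summed level of all 9 was 180 to 213 in unpollinated stigmas and 199 to 229 in unpollinated ovaries. Of 18 listed pollen markers, 4 were tested (EXPB9, EXPB10, ADF1 and ADF9), and no sperm marker was. Their summed relative intensity was 78.5 and 70.1 in 5-min stigmas against 3.40 to 6.38 in unpollinated stigmas. It was 9.79 to 21.7 in 5-min ovaries against 0.545 to 1.21 in unpollinated ovaries. Both pollinated tissues therefore lay above their unpollinated tissue. EXPB9, a beta-expansin of pollen, made up most of these sums except in unpollinated ovaries, and had an interaction of -0.97 ± 1.08 (SE; adjusted p = 0.822, limma). ADF1, ADF9 and EXPB10 were not called either, and the part of pollen RNA in the genes below was not tested. The 2 arrays of the 5-min stigma differed in their array median, 0.278 on array 1 and 0.377 on array 2, and in ovary genes. MADS13 read 0.972 and 3.66 on arrays 1 and 2 of the 5-min stigma, against 1.13 to 2.11 in unpollinated stigmas. YABBY1, of the YABBY family, read 3.22 and 10.2 there, against 5.55 to 6.47 in unpollinated stigmas. MADS21 read 0.256 and 0.964, against 0.142 to 0.304 in unpollinated stigmas, and MADS29 0.134 and 1.27, against 0.123 to 0.157. MADS13, MADS21, MADS29 and YABBY1 were thus all higher on array 2, while MADS8, MADS58 and DL were lower there. The sum of all 9 markers was 151 on array 1 and 149 on array 2. It was mostly MADS7, MADS8 and MADS58, which were not lower in unpollinated stigma than in unpollinated ovary. Named calls that were lost without array 2 are given without it below. In samples of whole tissue, fewer cells of a type and less RNA per cell cannot be told apart.

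The interaction was positive for 318 of the 487 probe sets, 0.897% of those tested, and negative for 169, 0.476% of those tested. In all, 1.37% of tested probe sets were called. An interaction of at least 2-fold was seen in 448 of the 487, and in a further 1718 probe sets that did not pass the test. The median standard error of an interaction was 0.34 on the log2 scale, and the smallest called one was 0.74. In the stigma alone 7810 probe sets were called, 22% of those tested: 8.61% rose and 13.4% fell. In the ovary 2091 were called, 5.9% of those tested: 3.88% rose and 2.02% fell. Which tissue had more calls depended on the fit. With arrays weighted by their spread, 3252 were called in the stigma and 4215 in the ovary. The median interaction over all probe sets was -0.00033. The later pistils, which share the error estimate, varied less than most of the compared groups. The median SD of a probe set (log2) was 0.162 to 0.210 in later pistils and 0.201 in 5-min ovaries. It was 0.275 in 5-min stigmas, 0.266 in unpollinated stigmas and 0.259 in unpollinated ovaries. A fit of the 11 arrays alone, with fewer degrees of freedom and no later pistils in the error estimate, called 64 positive and 14 negative interactions. It kept 75 of the 487 calls. Weighting the arrays by their spread called 108 positive and 39 negative ones. When arrays were scaled on consistently bright probe sets, that median shifted by 0.179 and the split was 548 positive to 117 negative, 82.4% positive instead of 65.3%.

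The calls in each tissue separate a rise in one tissue from a fall in the other. Of the 318 positive interactions, 257 rose in the stigma with no call in the ovary, 37 rose in both tissues but more in the stigma, and 8 rose in the stigma and fell in the ovary. A further 16 fell in the ovary with no call in the stigma. Most positive interactions were therefore stigma rises. The 169 negative interactions divided differently. There, 112 fell in the stigma with no call in the ovary, 44 rose in the ovary with no call in the stigma, and 9 fell in the stigma and rose in the ovary. Another 1 fell in both, and 3 were called in neither tissue.

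**Figure D1:**
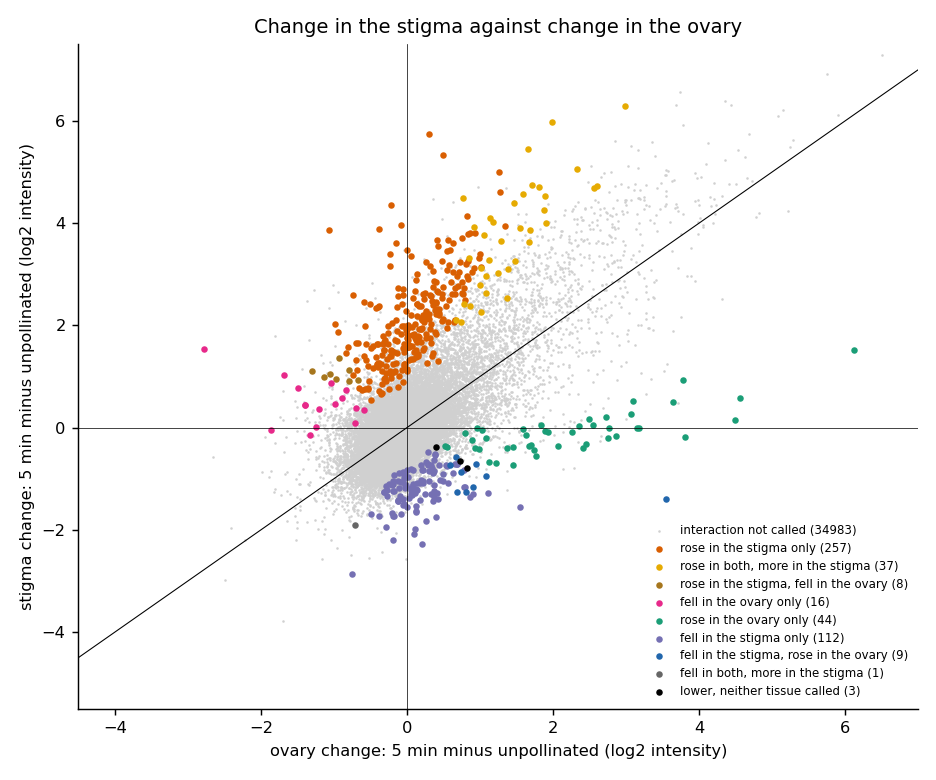
Each point is 1 tested probe set, placed by its ovary change (x axis) and its stigma change (y axis), both 5 min minus unpollinated in log2 intensity. Colours give the class of the 487 interaction calls and grey the rest, and the diagonal marks equal change. The 257 that rose in the stigma only lie above the diagonal with ovary changes around 0, and the 44 that rose in the ovary only lie to the right with stigma changes around 0. The classes were set by these same changes.

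No call in a tissue does not show that it did not move, so the size of the uncalled change is given. The classes were chosen on these same values, which favours a small or opposite uncalled change and an interval that excludes 2-fold. The sizes are therefore a description and no test that the other tissue stayed still. In the 257 that rose in the stigma only, the median stigma change was 1.96 and the median ovary change 0.066 on the log2 scale. The 95% interval of the ovary change ended below a 2-fold rise for 198 of them. In the 112 that fell in the stigma only, the median stigma change was -1.15 and the median ovary change 0.115. The interval of the ovary change excluded a 2-fold fall for 111 of them. In the 44 that rose in the ovary only, the median stigma change was -0.127 and the median ovary change 1.91, and the interval of the stigma change excluded a 2-fold rise for 35. In the 16 that fell in the ovary only, the median stigma change was 0.436 and the median ovary change -1.23. The interval of the stigma change excluded a 2-fold fall for all 16.

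Many more probe sets were called in one tissue alone than had an interaction. Of 2138 that rose in the stigma and not in the ovary, 265 had an interaction, 12.4%. The other 1873 had a median stigma change of 1.23 beside a median ovary change of 0.416. The choice of a stigma call without an ovary call favours the smaller ovary change. Of 459 that rose in the ovary and not in the stigma, 53 had an interaction, 11.5%, and the median stigma change of the rest was 0.449. Of 4363 that fell in the stigma and not in the ovary, 121 had an interaction, 2.77%. Their remainder had a median stigma change of -0.744 beside a median ovary change of -0.293. Of 323 that fell in the ovary and not in the stigma, 24 had an interaction. All 17 probe sets called in opposite directions in the 2 tissues had one. Most probe sets called in 1 tissue alone were thus not shown to differ between the tissues.

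The largest positive interaction was that of RAB21, a dehydrin gene induced by abscisic acid and drying. Its intensity was 7.85 and 22.6 in 5-min stigmas, against 0.227, 0.253 and 0.267 in unpollinated stigmas. In 5-min ovaries it was 2.37, 2.13 and 1.97, against 1.08, 4.43 and 1.12 in unpollinated ovaries. The stigma groups did not overlap and the ovary groups did. The stigma change was 5.75 ± 0.68 and the ovary change 0.30 ± 0.61 on the log2 scale (SE), an interaction of 5.45 ± 0.92 (adjusted p = 0.00599, limma). Another RAB21 probe set was also called, with an interaction of 4.83. RAB16B, another dehydrin, rose in both tissues. It read 8.16 and 10.9 in 5-min stigmas against 0.129, 0.205 and 0.0913 in unpollinated stigmas. In ovaries it read 1.32, 0.963 and 0.981 at 5 min against 0.263, 0.570 and 0.133 without pollination. Its interaction was 3.99 ± 0.86 (adjusted p = 0.0282, limma), but the call was lost without array 2 of the 5-min stigma (0.124) and without any 1 of 3 ovary arrays (0.0587 to 0.0635). Unpollinated stigma array 3 of RAB16B lay under the intensity floor of 0.128 and was raised to it in the fit. PP2C66, of the protein phosphatase 2C family that holds negative regulators of abscisic acid signalling, read 6.83 and 3.72 in 5-min stigmas against 2.28, 1.15 and 1.39 in unpollinated stigmas. It read 1.28, 1.80 and 1.32 in 5-min ovaries against 1.68, 1.72 and 1.95 in unpollinated ovaries (interaction 2.01 ± 0.36, adjusted p = 0.00909, limma).

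Genes of the cell wall and of sugar nucleotides formed another set of large stigma rises. UGE-1, which interconverts UDP-glucose and UDP-galactose, read 6.05 and 10.3 in 5-min stigmas against 0.133, 0.107 and 0.344 in unpollinated stigmas. The value of 0.107 lay under the floor of 0.128 and was raised to it in the fit, and 0.133 lay just above. The ovary values of UGE-1 were 3.35, 2.00 and 4.28 at 5 min against 1.20, 1.06 and 0.721 without pollination. Both tissues rose without overlap, by 5.45 in the stigma and 1.66 in the ovary on the log2 scale, with an interaction of 3.80 ± 0.54 (adjusted p = 0.00183, limma). BGLU25, a family-1 beta-glucosidase gene, read 13.6 and 15.9 in 5-min stigmas against 0.729, 0.842 and 0.559 in unpollinated stigmas. In ovaries BGLU25 read 7.41, 3.96 and 7.00 at 5 min against 2.26, 2.13 and 2.04 without pollination. Its interaction was 2.93 ± 0.32 (adjusted p = 0.000298, limma). GLU12, an endoglucanase gene, rose in the stigma only, with 2.48 and 1.86 at 5 min against 0.2, 0.138 and 0.405 without pollination. Its ovary values, 0.217, 0.394 and 0.239 at 5 min against 0.190, 0.204 and 0.193 without pollination, were not called (interaction 2.78 ± 0.53, adjusted p = 0.0126, limma). BC1L2, a COBRA-family gene of wall assembly, was in the other class. It fell in the ovary, with 0.438, 0.342 and 0.411 at 5 min against 1.01, 0.863 and 1.56 without pollination. Its stigma values of 1.12 and 0.675 at 5 min against 0.692, 0.342 and 0.559 were not called (interaction 2.26 ± 0.39, adjusted p = 0.00716, limma).

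The precursors of a signal peptide had interactions of opposite sign. PSK4 and PSK2 encode precursors of phytosulfokine, a sulfated peptide hormone of cell growth. PSK4 read 6.27 and 7.51 in 5-min stigmas against 0.282, 0.277 and 0.369 in unpollinated stigmas. In ovaries PSK4 read 0.702, 0.792 and 0.418 at 5 min against 0.382, 0.355 and 0.350 without pollination. Its interaction of 3.72 ± 0.31 had the smallest adjusted p of the named genes with a positive one, 1.09e-05 (limma). PSK2 did not pass the test in the stigma, with 4.08 and 6.36 at 5 min against 4.62, 4.94 and 7.06. It rose in the ovary, with 6.60, 4.73 and 5.26 at 5 min against 1.13, 1.56 and 1.69, and ended near the stigma level. The PSK2 interaction was -2.03 ± 0.39 (adjusted p = 0.0135, limma) and missed the threshold without array 1 of the 5-min stigma (0.0508).

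Transport genes that rose in the stigma only included SWEET1B, a sugar transporter, PHO1-3, of the PHO1 phosphate exporter family, and YSL1, a metal-chelate transporter. SWEET1B read 3.04 and 3.10 in 5-min stigmas against 0.207, 0.226 and 0.393 in unpollinated stigmas, and 0.525, 0.388 and 0.281 in 5-min ovaries against 0.249, 0.173 and 0.556 in unpollinated ovaries. Its interaction was 3.12 ± 0.56 (adjusted p = 0.00909, limma). PHO1-3 had an interaction of 2.84 ± 0.55 (adjusted p = 0.0135) and YSL1 of 1.52 ± 0.31 (adjusted p = 0.0195, limma). YSL1 was not called without array 1 of the 5-min stigma (0.0531) or array 3 of the 5-min ovary (0.0502), and its unpollinated ovary array 1 lay under the floor. TIP2-1, a tonoplast aquaporin, was near the floor in unpollinated ovaries (2 of 3 arrays at it) and lost its call in 9 of 11 fits that each left out an array (adjusted p up to 0.105, and 0.0876 without array 2 of the 5-min stigma). Its interaction was 1.90 ± 0.46 (adjusted p = 0.0449, limma).

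Other genes that rose in the stigma only covered metabolism, signalling and growth. GLT2, a glutamate synthase gene, read 1.48 and 1.80 in 5-min stigmas against 0.148, 0.334 and 0.398 in unpollinated stigmas. Its ovary values of 0.752, 0.583 and 0.601 at 5 min overlapped the unpollinated values of 0.966, 0.650 and 1.95 (interaction 3.33 ± 0.52, adjusted p = 0.00342, limma). MPK17, a mitogen-activated protein kinase gene, read 1.80 and 1.17 against 0.261, 0.258 and 0.207 in the stigma (interaction 2.65 ± 0.44, adjusted p = 0.00577). AMY3D, a starch-degrading alpha-amylase induced by sugar starvation, read 1.64 and 1.96 against 0.245, 0.182 and 0.340 in the stigma. Its interaction of 2.26 ± 0.41 (adjusted p = 0.00992) was not called without array 2 of the 5-min stigma (0.0549, limma). Among auxin genes, ARF15, an auxin response factor, had an interaction of 2.49 ± 0.37 (adjusted p = 0.00271). ILL6, of the auxin conjugate hydrolase family, had 1.84 ± 0.40 (adjusted p = 0.0281) and lost its call in 5 of 11 fits that left out an array (adjusted p up to 0.0865, limma). For the cytoskeleton, ACT2, an actin gene, had 1.64 ± 0.32 (adjusted p = 0.014) and ADF5, an actin-depolymerising factor, had 2.04 ± 0.48 (adjusted p = 0.0422). ADF5 was lost in 9 of 11 such fits (adjusted p up to 0.163, limma). GRXC7, a glutaredoxin gene, had 1.62 ± 0.33 (adjusted p = 0.0198, limma), and 0.0681 without array 1 of the 5-min stigma.

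Some genes that rose in the stigma only started lower there than in the ovary. GRF1, a growth-regulating transcription factor, read 1.04 and 1.66 in 5-min stigmas against 0.447, 0.383 and 0.451 in unpollinated stigmas. In ovaries GRF1 read 2.55, 1.93 and 2.43 at 5 min against 3.98, 3.22 and 2.98 without pollination. The stigma rose 3.08-fold and stayed below every ovary array (interaction 2.18 ± 0.27, adjusted p = 0.000702, limma). BURP3, of the plant BURP-domain family, read 2.73 and 1.58 in 5-min stigmas against 0.340, 0.239 and 0.361 in unpollinated stigmas. Its ovaries read 2.23, 2.28 and 3.11 at 5 min against 2.34, 2.21 and 1.46 (interaction 2.40 ± 0.36, adjusted p = 0.00271, limma). SMR1, of the plant cyclin-dependent kinase inhibitor family, read 1.0 and 3.58 in 5-min stigmas against 0.273, 0.696 and 0.283 in unpollinated stigmas. Its ovary values ran from 2.30 to 4.48 at 5 min against 3.19 to 5.90 without pollination. Array 2, the higher of the 5-min stigma pair for SMR1, also had more signal of MADS13 and YABBY1. The part of that signal in SMR1 was not tested, and without it the adjusted p was 0.167 in place of 0.0256 (limma). Leaving out any 1 of 3 ovary arrays also lost the call (0.0527 to 0.0621). Cht11, a chitinase gene, and G1L2, of the ALOG family of shoot regulators, had 1.97 ± 0.38 (adjusted p = 0.0147) and 2.07 ± 0.42 (adjusted p = 0.0194). Without array 1 of the 5-min stigma these were 0.0531 and 0.0672, and G1L2 had 0.0516 without array 3 of the 5-min ovary (limma).

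Among genes that rose in both tissues, cbp3, a serine carboxypeptidase gene, and Cht6, a chitinase gene, rose more in the stigma. For cbp3, 39.5 and 50.8 in 5-min stigmas stood against 1.02, 1.19 and 2.01 in unpollinated stigmas, and 13.4, 7.2 and 17.1 in 5-min ovaries against 2.84, 1.36 and 3.34. The interaction was 2.72 ± 0.51 (adjusted p = 0.0114), and 0.0626 without array 2 of the 5-min stigma (limma). For Cht6, 4.66 and 3.13 in 5-min stigmas stood against 0.240, 0.208 and 0.367, and 0.463, 0.551 and 0.364 in 5-min ovaries against 0.139, 0.160 and 0.118 (interaction 2.18 ± 0.34, adjusted p = 0.00339, limma). The last of these Cht6 values lay under the floor and was raised to it. The 3 positive interactions of largest size at genes without a symbol were LOC4325689 (4.93 ± 0.86, adjusted p = 0.00771), LOC4324704 (4.57 ± 0.55, adjusted p = 0.00065) and LOC4348634 (4.30 ± 0.95, adjusted p = 0.0293, limma). LOC4325689 and LOC4324704 rose in the stigma only. LOC4348634 fell in the ovary only, with 3.07, 1.96 and 5.39 in 5-min ovaries against 19.8, 10.3 and 50.9 in unpollinated ovaries, and lost its call in 6 of 11 fits that left out an array (0.0731 without array 2 of the 5-min stigma).

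SAT1, a serine acetyltransferase gene of cysteine synthesis, was the gene with a symbol that moved in opposite directions. It read 0.754 and 0.756 in 5-min stigmas against 0.478, 0.326 and 0.396 in unpollinated stigmas. In ovaries SAT1 read 0.350, 0.299 and 0.336 at 5 min against 0.617, 0.510 and 0.453. Neither pair of groups overlapped. The stigma rose 1.91-fold and the ovary fell by 0.67 on the log2 scale (interaction 1.60 ± 0.26, adjusted p = 0.00454, limma).

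**Figure D2:**
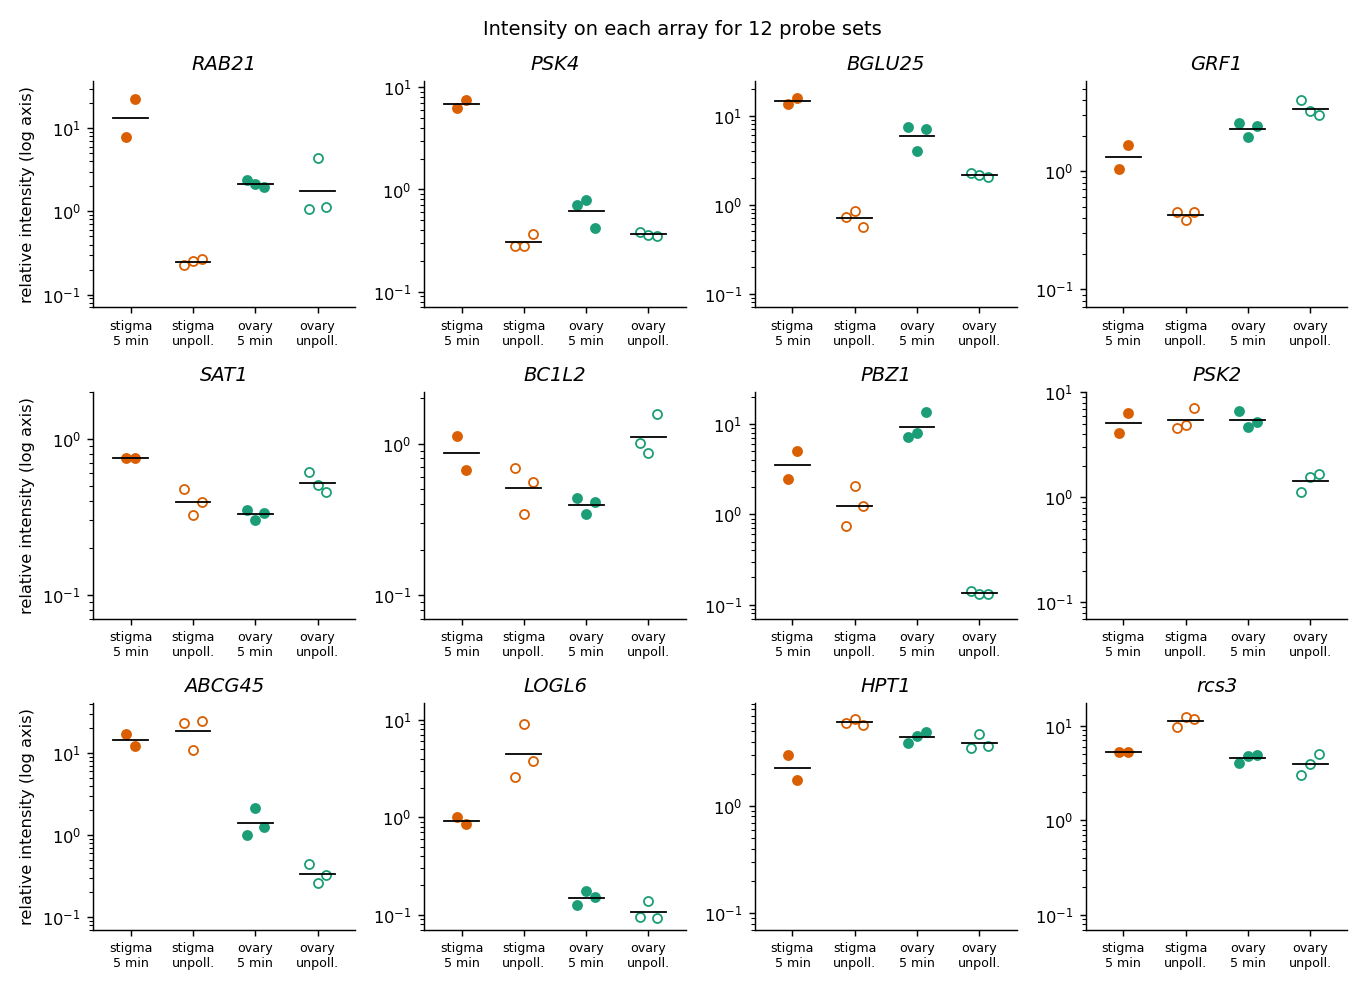
Relative intensity (log axis) on each array for 12 named probe sets in 5-min stigma, unpollinated stigma, 5-min ovary and unpollinated ovary. Filled points are 5-min arrays, open points unpollinated arrays, and bars geometric means. PSK4 and BGLU25 rise in both tissues but further in the stigma, PSK2 and PBZ1 rise in the ovary, and HPT1 and rcs3 fall in the stigma.

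The largest negative interaction of a gene with a symbol was that of PBZ1, a pathogenesis-related protein of the PR-10 family. Its intensity was 7.28, 8.04 and 13.8 in 5-min ovaries, against 0.142, 0.132 and 0.130 in unpollinated ovaries. In 5-min stigmas it was 2.49 and 5.08, against 0.753, 2.04 and 1.23 in unpollinated stigmas. The ovary change was 6.11 ± 0.63 (adjusted p = 3.8e-05) and the stigma change 1.52 ± 0.70 (adjusted p = 0.139). The unpollinated ovary values lay just above the floor of 0.128. The interaction was -4.59 ± 0.94 (adjusted p = 0.0199, limma), and 0.0631 without array 1 of the 5-min stigma or 0.0556 without array 3 of the 5-min ovary. The ovary passed the level of the stigma, with every 5-min ovary array above both 5-min stigma arrays.

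In ABCG45, PSY3 and EXPA6, which also rose in the ovary only, the ovary stayed below the stigma. ABCG45, a full-size ABC transporter, read 1.02, 2.13 and 1.26 in 5-min ovaries against 0.445, 0.259 and 0.327 in unpollinated ovaries. Its stigma values were 17.0 and 12.2 at 5 min against 23.0, 10.9 and 24.9 without pollination (interaction -2.41 ± 0.45, adjusted p = 0.0109, limma). PSY3, a phytoene synthase of carotenoid synthesis, read 1.68, 2.19 and 3.20 in 5-min ovaries against 0.782, 0.717 and 0.778 in unpollinated ovaries. Its stigma values were 15.6 and 8.59 at 5 min against 13.4, 10.3 and 11.9 (interaction -1.61 ± 0.36, adjusted p = 0.0329, limma). EXPA6, an alpha-expansin, read 1.70, 2.14 and 1.73 in 5-min ovaries against 1.10, 0.846 and 0.872 in unpollinated ovaries, and 9.29 to 19.3 in all stigma arrays (interaction -1.41 ± 0.30, adjusted p = 0.0254, limma). Without array 2 of the 5-min stigma the adjusted p was 0.0688 for ABCG45, 0.215 for PSY3 and 0.126 for EXPA6. PSY3 was also lost in 5 fits that left out another array and EXPA6 in 3. Among the 3 largest negative interactions without a gene in the annotation, one probe set had 8.21, 18.4 and 5.91 in 5-min ovaries against 0.716, 0.413 and 0.270, beside 97.3 and 73.3 in 5-min stigmas against 83.3, 48.7 and 109 (interaction -4.33 ± 0.57, adjusted p = 0.00111, limma). Another unannotated probe set had 9.09, 35.3 and 19.6 in 5-min ovaries against 0.578, 3.33 and 1.20 in unpollinated ovaries, and 124 to 183 in all stigma arrays (interaction -3.98 ± 0.73, adjusted p = 0.00992, limma), and its call was lost without array 2 of the 5-min stigma (0.0523). The unannotated probe set with the largest negative interaction of all rose in the ovary to 2.10, 1.71 and 3.56 at 5 min, against 0.222, 0.249 and 0.148 without pollination. It fell in the stigma, with 22.9 and 16.8 at 5 min against 56.8, 51.8 and 45.9 (interaction -4.93 ± 0.37, adjusted p = 4.15e-06, limma).

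Genes that fell in the stigma with no call in the ovary included enzymes of cytokinin, vitamin E, flavonoid and cysteine synthesis. LOGL6, of the family that activates cytokinin, read 0.994 and 0.847 in 5-min stigmas against 2.56, 9.03 and 3.79 in unpollinated stigmas. Its ovary values were at or near the floor throughout, 0.126 to 0.173 at 5 min against 0.0927 to 0.137, so a fall there could not have been seen (interaction -2.48 ± 0.49, adjusted p = 0.0163, limma). LOGL5, of the same family, fell to 2.11 and 1.37 in 5-min stigmas, against 4.30, 3.92 and 3.21 in unpollinated stigmas, with 0.987, 1.48 and 1.81 in 5-min ovaries against 0.852, 1.09 and 0.559 (interaction -1.94 ± 0.43, adjusted p = 0.0329, limma). HPT1, the homogentisate phytyltransferase of tocopherol synthesis, read 2.96 and 1.75 in 5-min stigmas against 6.0, 6.56 and 5.76 in unpollinated stigmas. In ovaries HPT1 read 3.87, 4.55 and 4.87 at 5 min against 3.47, 4.76 and 3.65. Its stigma groups did not overlap and its ovary groups did (interaction -1.59 ± 0.26, adjusted p = 0.00549, limma), and 3 HPT1 probe sets were called. For rcs3, a cysteine synthase gene, 5.23 and 5.30 in 5-min stigmas stood against 9.63, 12.3 and 11.8 in unpollinated stigmas, and 4.03, 4.73 and 4.92 in 5-min ovaries against 3.03, 3.90 and 5.04 (interaction -1.31 ± 0.25, adjusted p = 0.0126, limma).

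Expansins, a cyclin and an epidermal regulator were also among these falls. EXPB3, a beta-expansin, fell to 6.37 and 2.90 in 5-min stigmas, against 13.7, 9.87 and 22.1 in unpollinated stigmas, and EXLA4, an expansin-like gene, to 0.983 and 0.507 against 1.96, 1.79 and 1.73. Their interactions were -2.14 ± 0.47 (adjusted p = 0.0285) and -1.73 ± 0.38 (adjusted p = 0.0295, limma). CASPL2C1, of the CASP-like membrane protein family, had -2.21 ± 0.40 (adjusted p = 0.00992), and CHI, chalcone isomerase, had -1.65 ± 0.38 (adjusted p = 0.0386, limma). CYCD5-1, a D-type cyclin, read 1.38 and 1.17 in 5-min stigmas against 3.81, 4.53 and 4.36 in unpollinated stigmas (interaction -1.56 ± 0.32, adjusted p = 0.0198, limma). Roc6, a homeodomain factor of the epidermal class, had -1.30 ± 0.26 (adjusted p = 0.0181), and ERS2, an ethylene receptor, had -0.89 ± 0.20 (adjusted p = 0.0349, limma). An uncalled ovary rise made up part of some interactions. CASPL2C1 changed by -1.35 in the stigma and 0.858 in the ovary (ovary adjusted p = 0.0685, limma). Roc6 changed by -0.755 and 0.542 (ovary adjusted p = 0.0754, limma). The ovary change was 0.561 for CHI, 0.398 for EXPB3, 0.366 for EXLA4, -0.180 for CYCD5-1 and -0.036 for ERS2. RBOHB, an NADPH oxidase that makes superoxide, was called in neither tissue. It read 19.4 and 8.98 in 5-min stigmas against 27.8, 19.5 and 21.7, and 1.41, 2.62 and 2.62 in 5-min ovaries against 1.11, 1.18 and 1.35 (interaction -1.60 ± 0.38, adjusted p = 0.0445, limma). Many of these calls were fragile. Of the 11 fits that left out an array, 8 lost ERS2, 7 each CHI and RBOHB, 6 each LOGL5 and EXLA4, 3 EXPB3 and 2 CYCD5-1, while LOGL6, CASPL2C1 and Roc6 were lost in 1. Without array 2 of the 5-min stigma the adjusted p was 0.08 for LOGL6, 0.193 for LOGL5, 0.193 for EXPB3, 0.198 for EXLA4, 0.0717 for CASPL2C1, 0.226 for CHI, 0.103 for CYCD5-1, 0.117 for Roc6, 0.122 for ERS2 and 0.283 for RBOHB. The HPT1 probe set described and rcs3 kept their calls in all 11 fits that left out an array.

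Without array 2 of the 5-min stigma, 42 negative and 218 positive interactions were called, and without array 1, 396 negative and 342 positive. All 487 interactions kept their sign in each of the 11 fits that left out an array. They were chosen as large against their error, so this was likely from the start. Of the 487, 141 were called in every such fit, 111 positive and 30 negative. Of those 141, 86 rose in the stigma only, 14 fell in the stigma only and 10 rose in the ovary only. The named genes among the 141 were RAB21, UGE-1, PSK4, GLT2, SWEET1B, BGLU25, PHO1-3, GLU12, MPK17, ARF15, BURP3, BC1L2, GRF1, Cht6, PP2C66, ACT2, SAT1, rcs3 and HPT1. Only 37 probe sets, 28 positive and 9 negative, were also called under all 12 other settings of the fit. A probe set that a setting removed counted as not called there. The filter at the 75th percentile tested 386 of the 487, and the fit without cross-hybridising probe sets 407. Of the genes just listed, RAB21, UGE-1, PSK4, BGLU25, MPK17, ARF15, BURP3 and GRF1 were. The rest missed the call, or were not tested, in 1 setting or more, and ACT2, SAT1 and rcs3 kept it in 9 of 12. SAT1 lay under the 75th percentile on every array, so the filter there did not test it.

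The classes differed in where their genes were expressed before pollination. Of the 44 probe sets that rose in the ovary only, 41, or 93.2%, were at least 2-fold higher in unpollinated stigma than in unpollinated ovary, against 8.97% of all tested probe sets. Their median difference was 4.53 on the log2 scale. Of the 112 that fell in the stigma only, 54, or 48.2%, were at least 2-fold higher in unpollinated stigma. Of the 257 that rose in the stigma only, 84, or 32.7%, were at least 2-fold higher in unpollinated ovary, against 6.504% of all tested, and none was 2-fold higher in unpollinated stigma. Of the 16 that fell in the ovary only, 10 were at least 2-fold higher in unpollinated ovary. The difference before pollination and the interaction share the unpollinated arrays, so chance high or low values there move both, and no test was made.

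**Figure D3:**
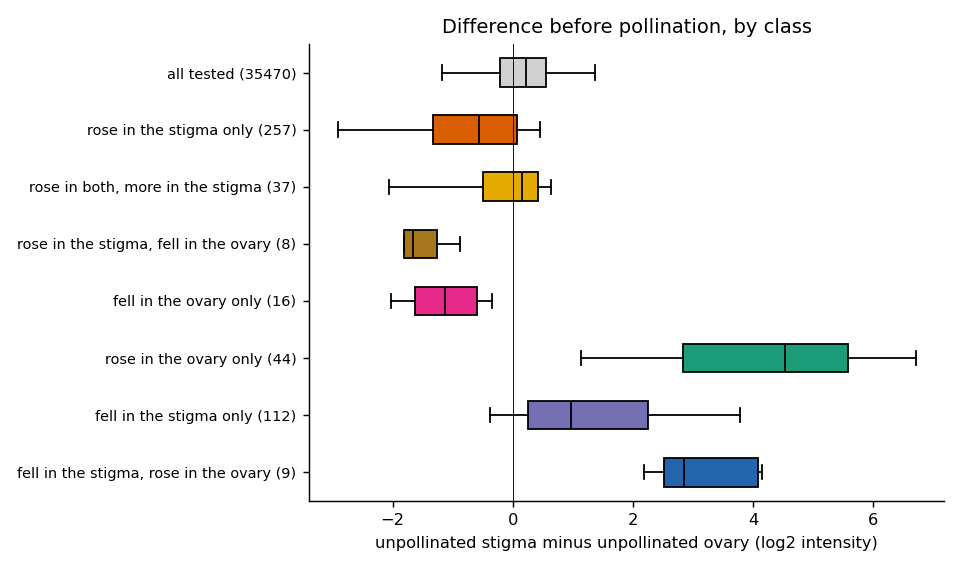
Difference between unpollinated stigma and unpollinated ovary (x axis, log2 intensity) for all tested probe sets and for the 7 larger classes of interaction calls, with the number in each. Boxes span the quartiles with the median inside and whiskers the 5th to 95th percentile. The class that rose in the ovary only lies furthest to the stigma side, and the classes that fell in the ovary lie to the ovary side.

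Levels on each array show where the classes lay. The 44 probe sets that rose in the ovary only had a median intensity of 1.69, 2.26 and 2.15 in 5-min ovaries, against 0.576, 0.435 and 0.450 in unpollinated ovaries. Their median was 14.6 and 9.17 in 5-min stigmas, against 13.7, 10.4 and 14.7 in unpollinated stigmas. The ovary thus gained signal of genes that were high in the stigma throughout. The same was measured over all probe sets at least 16-fold higher in unpollinated stigma than in unpollinated ovary, called or not. These 103 had a median of 0.880, 1.78 and 0.840 in 5-min ovaries, against 0.346, 0.290 and 0.283 in unpollinated ovaries, and 56 of them rose in the ovary, where 3.88% of all tested probe sets rose. The choice of low unpollinated ovary values favours a rise there and leaves little room for a fall, so the count is a description. In the other direction, the 47 probe sets at least 16-fold higher in unpollinated ovary had a median of 0.304 and 0.964 on arrays 1 and 2 of the 5-min stigma, against 0.249, 0.310 and 0.312 in unpollinated stigmas. Of these 47, 12 rose in the stigma (median change 0.71), and the median was raised on array 2 but not on array 1. The choice of low unpollinated stigma values favours a rise here too. Stigma tissue left on the dissected ovary, or ovary tissue on the stigma, was not tested as a source of these values.

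**Figure D4:**
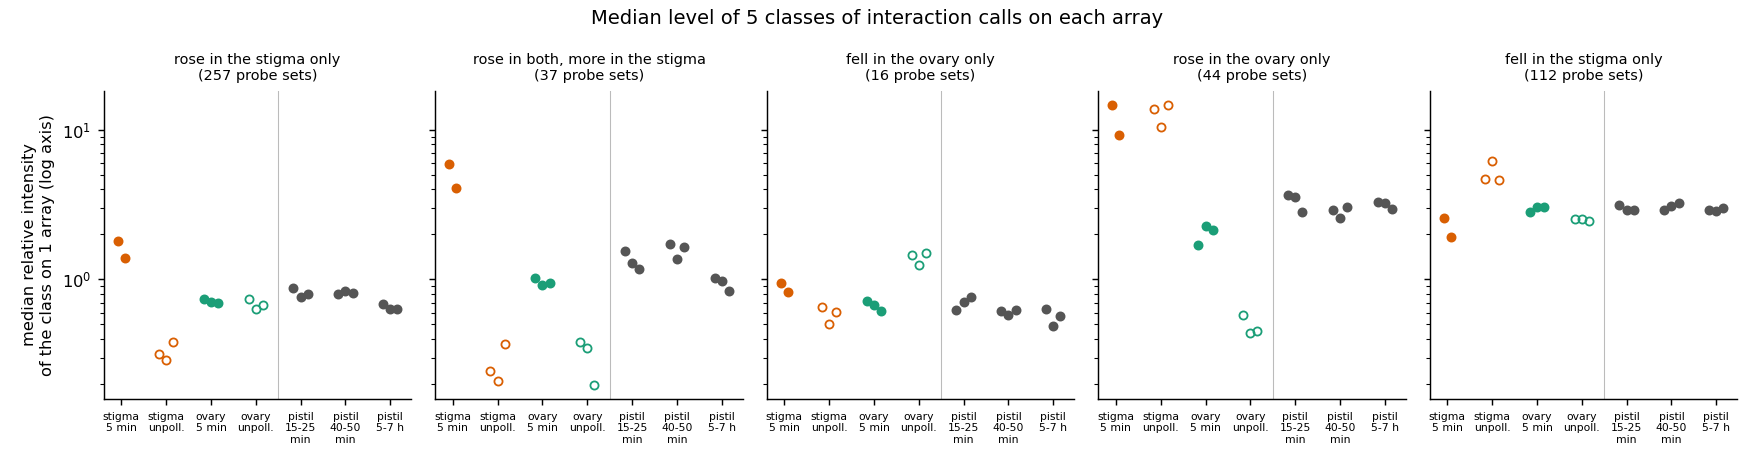
Median relative intensity (log axis) of 5 classes of interaction calls on each array, with 5-min arrays filled and unpollinated arrays open, stigma in orange, ovary in green and pollinated whole pistils in grey. In the class that rose in the ovary only, 5-min ovaries lie above unpollinated ovaries but below all stigma arrays. In the class that fell in the stigma only, both 5-min stigma arrays lie below the 3 unpollinated ones.

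The whole pistils collected later are arrays apart from the 11, although the fit gave all groups 1 error estimate for each probe set and 1 filter. In pistils at 5 to 7 h against 15 to 25 min, 10.9% of tested probe sets were lower and 14.2% higher (limma). Of the 257 that rose in the stigma only, 66 (25.7%) were lower at 5 to 7 h and 30 (11.7%) higher. Of the 37 that rose in both tissues but more in the stigma, 15 were lower and 6 higher. Of the 44 that rose in the ovary only, 20 (45.5%) were lower and 1 was higher. The 112 that fell in the stigma only went the other way more often, with 35 (31.25%) higher and 21 (18.75%) lower. Both shares were above those of all tested probe sets. RAB21 read 0.256, 0.290 and 0.289 at 5 to 7 h against 4.37, 1.11 and 1.73 at 15 to 25 min (log2 change -2.87 ± 0.61, adjusted p = 0.00205, limma). AMY3D read 0.196, 0.179 and 0.142 at 5 to 7 h against 0.997, 0.771 and 0.737 at 15 to 25 min (adjusted p = 1.44e-05, limma). BGLU25, with 10.8 to 12.6 at 5 to 7 h against 9.44 to 11.8 at 15 to 25 min, was not called, nor was PSK4. Others rose later: GRF1 read 7.94 to 8.18 at 5 to 7 h against 2.19 to 3.12 (adjusted p = 9.53e-06), and GRXC7 5.25 to 5.95 against 1.36 to 1.56 (adjusted p = 8.04e-06, limma). No unpollinated whole pistil is among the arrays, so these values cannot be set against a matched unpollinated sample.

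Gene lists by symbol give the number of calls in each group of genes, with no test of a list. With 1 probe set a gene, 1.33% of 16263 tested genes had a positive interaction and 0.812% a negative one, and the median interaction was -0.108. The lists hold genes with a symbol, of which 2.94% had a call in either direction, against 2.15% of all genes. Of 77 abscisic acid genes, 4 had a positive interaction and none a negative one, with a median of 0.211. In the same list 24 rose and 6 fell in the stigma, while 7 rose and 2 fell in the ovary. The 4 were RAB21, RAB16B, PP2C66 and PP2C59, the last named outside the naming rule after its values were seen. Of 88 wall enzymes, 6 had a positive interaction and none a negative one (median 0.0988): UGE-1, BGLU25, GLU12, BC1L2 and, outside the naming rule, CSLA9 and CSLD5. Of 25 expansins, 3 had a negative interaction (EXPB3, EXLA4 and EXPA6) and none a positive one, although 9 expansins rose and 2 fell in the stigma, and the median interaction was 0.222. Of 29 cytokinin genes, LOGL5 and LOGL6 had a negative interaction and none a positive one. Of 36 genes of water and sugar transport, SWEET1B and TIP2-1 had a positive interaction. There 14 rose and 1 fell in the stigma, and 5 rose in the ovary. Of 39 actin and small GTPase genes, ACT2 and ADF5 had a positive interaction. Of 63 auxin genes, ARF15 and ILL6 had a positive one, and ARF17, outside the naming rule, a negative one. Of 72 ion transport genes, PHO1-3 and YSL1 had a positive one, and HAK25, outside the naming rule, a negative one. Of 74 genes of the MADS, HOX and YABBY list, G1L2 had a positive interaction, and Roc6 and, outside the naming rule, MADS1 a negative one. The redox list (74 genes) held GRXC7 and RBOHB, the cell cycle list (73) SMR1 and CYCD5-1, the ethylene list (18) ERS2, and the list of sucrose, starch and trehalose (45) AMY3D. Of 28 defence genes, Cht6 and Cht11 had a positive and PBZ1 a negative interaction.

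Several lists had no interaction call in any member, among them lists with calls in both tissues. Among 31 jasmonate genes, 9 rose and 4 fell in the stigma and 6 rose and 1 fell in the ovary, with median changes of 0.819 and 0.812 and no interaction call. GH3.5, also named JAR1 for making the active jasmonate conjugate, had the smallest p of the list, with an interaction of 2.08 (adjusted p = 0.127, limma). Among 38 WRKY, NAC, MYB and bZIP factors, 13 rose and 2 fell in the stigma and 7 rose and 1 fell in the ovary, with no interaction call. Among 86 calcium signalling genes, 27 rose and 13 fell in the stigma and 12 rose in the ovary. Among 49 heat shock genes, 9 rose and 3 fell in the stigma and 8 rose and 1 fell in the ovary. CML28, a calmodulin-like gene, had the smallest p of the calcium list, with an interaction of 1.66 ± 0.44 (adjusted p = 0.0736). HSP17.9B, a small heat shock protein, had the smallest p of its list, with -1.64 ± 0.50 (adjusted p = 0.131, limma). Of 36 genes of ribosome and translation, 29 fell in the stigma and none rose, and in the ovary none was called either way. Their median change was -0.728 for the stigma against -0.312 for the ovary, with no interaction call. Across all genes, 12.2% rose and 21.2% fell in the stigma, while 5.96% rose and 2.64% fell in the ovary. Kinesins and tubulins (48 genes), gibberellin (12), photosynthesis and chlorophyll (29), small RNA and chromatin (34) and the circadian clock (9) also had no interaction call by limma. At an unadjusted p under 0.05, the counts were 6 jasmonate genes, 4 transcription factors, 16 calcium genes, 4 heat shock genes, 9 ribosome genes, 9 kinesins and tubulins, 3 gibberellin genes, 1 photosynthesis gene, 1 small RNA gene and 2 clock genes. Over all genes that share was 18.2%, and over genes with a symbol 21.2%. With standard errors of this size, no call does not show that the tissues acted alike.

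**Figure D5:**
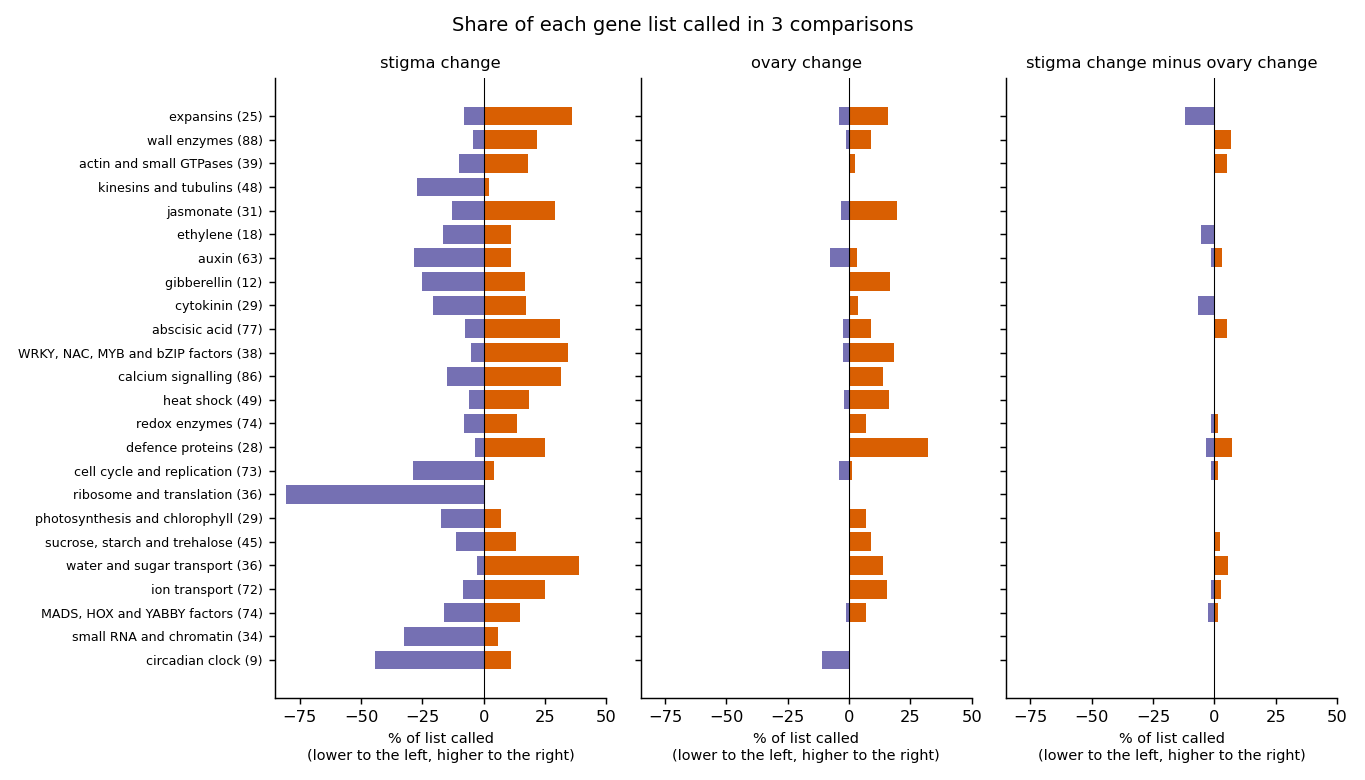
Share of the genes of each list (y axis, number of genes in brackets) called lower (left, purple) or higher (right, orange) in the stigma change, the ovary change and the interaction, in percent. Calls in the stigma outnumber those in the ovary in most lists, and interaction calls are few, with 0 in the jasmonate, calcium signalling and ribosome lists.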

How the data were processed

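The authors deposited a linear relative intensity for 57381 probe sets on each array. The submitters' processing notes name GCOS 1.3. The 75th percentile of every array equals 1; which step set this is not given. Lower intensities were floored at 0.128, the table's 20th percentile, before log2 was taken. After removal of 187 control probe sets, 35470 exceeded the median of their array on 2 arrays or more and were tested. A mean was estimated for each of the 7 groups (limma 3.58.1, R 4.3.3, variance trend, 13 degrees of freedom left), with Benjamini-Hochberg adjustment and calls at an adjusted p under 0.05. Array medians of the 11 arrays ran from 0.197 to 0.377, and arrays of a group correlated at 0.937 or more. The highest median was that of array 2 of the 5-min stigma, against 0.276 to 0.317 on the other stigma arrays. The lowest was that of unpollinated ovary array 1. The number of arrays limits the precision.

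The platform annotation gave 1 gene for 22436 probe sets and several for 95. Symbols are RefSeq symbols and synonyms, found for 2281 tested genes, and can be old. Errors on changes are standard errors. Named genes are, for each sign, the 12 called with a symbol and the largest interaction and the 3 largest without a symbol, with the 4 smallest p-values of each class and the 2 smallest of each list. Lists took 1 probe set a gene, that of highest mean. The members and lists were chosen with earlier results of these data known. The fit was tested on simulated data.

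Other settings were quantile normalization, centring on medians, scaling on 9103 bright probe sets, other filters and floors, removal of cross-hybridising probe sets, no trend, array weights, the 11 arrays alone, a replicate block, an adjusted p under 0.1, a 2-fold minimum and omission of single arrays.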

Additional observations from a re-analysis of the deposited data

Results flagged for a closer look

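The change at 5 min differed between stigma and ovary, by a test of the difference itself, in 318 probe sets where it was higher in the stigma and 169 where it was lower. The named probe sets among them follow, with the interaction on the log2 scale. The largest positive values were RAB21 5.45, LOC4325689 4.93, LOC4324704 4.57, LOC4348634 4.30, RAB16B 3.99, UGE-1 3.80, PSK4 3.72, GLT2 3.33, SWEET1B 3.12, BGLU25 2.93 and PHO1-3 2.84. Next came GLU12 2.78, SMR1 2.76, cbp3 2.72, MPK17 2.65, ARF15 2.49, BURP3 2.40, BC1L2 2.26, AMY3D 2.26, GRF1 2.18, Cht6 2.18 and G1L2 2.07. The smaller positive values were ADF5 2.04, PP2C66 2.01, Cht11 1.97, TIP2-1 1.90, ILL6 1.84, ACT2 1.64, GRXC7 1.62, SAT1 1.60 and YSL1 1.52. The smaller negative values were ERS2 -0.89, Roc6 -1.30, rcs3 -1.31, EXPA6 -1.41, CYCD5-1 -1.56, HPT1 -1.59, RBOHB -1.60, PSY3 -1.61, CHI -1.65 and EXLA4 -1.73. The larger negative values were LOGL5 -1.94, PSK2 -2.03, EXPB3 -2.14, CASPL2C1 -2.21, ABCG45 -2.41, LOGL6 -2.48, an unannotated probe set -3.98, another -4.33, PBZ1 -4.59 and the last unannotated probe set -4.93. No explanation of these differences was tested.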

How the results depend on the processing

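None of the 51 named probe sets with an interaction call reversed in any fit, and all 487 calls kept their sign in every fit that tested them. The calls were chosen as large against their error in the same arrays, so a reversal was unlikely from the start. Over 1168 combinations of a named probe set and a fit, 956 calls were kept and 212 lost. Counts moved more, and are given in the order positive, negative, rose in the stigma only, fell in the ovary only, rose in the ovary only, fell in the stigma only, stigma calls and ovary calls. Centring on array medians gave 119, 42, 100, 5, 23, 17, 4925 and 1191. Array weights gave 108, 39, 82, 3, 16, 16, 3252 and 4215. The 11 arrays alone gave 64, 14, 58, 1, 6, 5, 3998 and 736. An adjusted p under 0.1 gave 545, 331, 428, 31, 74, 231, 9958 and 3543. Scaling on bright probe sets gave 548 positive interactions, 455 rises in the stigma only and 57 falls in the stigma only. A floor at the 40th percentile gave 588 positive interactions, 501 rises in the stigma only and 25 falls in the ovary only. No filter gave 1334 ovary calls, and a 2-fold minimum 3152 stigma and 1233 ovary calls. With each array left out, the 8 counts ran from 188 to 519, 42 to 396, 167 to 406, 7 to 31, 16 to 62, 21 to 331, 2968 to 8076 and 787 to 2672. The cause was not tested.

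Negative calls numbered 42 without 5-min stigma array 2 and 396 without array 1. Without unpollinated stigma array 1 there were 278 negative calls, without array 3 there were 519 positive and 357 negative. Without an array of the 5-min ovary, positive and negative calls were 210 and 119 (array 1), 237 and 99 (array 2) or 188 and 90 (array 3), and 239 and 111 without unpollinated ovary array 2. Replicate numbers were not treated as pairs. Same-numbered deviations correlated at -0.259 to 0.419, which does not settle whether samples were paired. With 2 arrays in the 5-min stigma, their deviations mirror each other, so these correlations come in values of opposite sign. With the replicate block the counts were 329 positive and 167 negative, 429 of them shared with the 487. With 2 arrays of the 5-min stigma, its spread rests largely on that of the other groups.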
